A study of Mus musculus with 10 samples.

Results

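The genes described here are 34 interferon-stimulated genes, measured on 10 one-colour Agilent mouse expression arrays of sorted cells. They were chosen by name as a gene module and not by their values on these arrays. Each member was taken from the non-control probes that carry its gene name, and a member with several probes was represented by the probe of highest mean log2 processed signal over the 10 arrays. All 34 were found among 34832 gene names on the array. Of these 34 members, 32 passed the filter on low values and were tested together with 31939 genes in all. Gbp3 was well above background on 0 arrays and Mx1 on 1 array, so neither was tested.

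The study sorted fluorescent cells from the midbrain of mice treated with the dopaminergic neurotoxin MPTP. Haematopoietic stem and progenitor cells (HSPCs, lineage-negative bone marrow cells) had been placed over one substantia nigra on day 3 after the last MPTP dose, and the cells were sorted 1 week later. Cells that were red and yellow (RFP+YFP+) are graft cells fused with a recipient cell and are called hybrids, while cells that were red only (RFP+) are called unfused. Each replicate pooled the samples of 2 mice.

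There were 5 groups of 2 replicates, and every group, the unfused cells included, had MPTP and a graft. R26Y hybrids came from R26Y recipients, which carry the YFP reporter, grafted with HSPCs expressing Cre and RFP. GFAP-Cre hybrids came from recipients with Cre under the promoter of the astrocyte gene Gfap, grafted with R26Y HSPCs. A pool of red-only cells from the R26Y and GFAP-Cre models served as the unfused cells for both of these hybrid types and shared their slide. FoxA2-Cre hybrids came from recipients with Cre driven by Foxa2, a gene of midbrain floor plate cells and dopaminergic neurons, and FoxA2-Cre unfused cells came from the same model. Both FoxA2-Cre groups filled another slide, so the recipient set and the slide cannot be told apart. In GFAP-Cre and FoxA2-Cre recipients, a graft cell that fused with a cell lacking Cre stays red only and counts as unfused. The ages and sexes of the mice are not given in the sources used here. The labels do not say that replicates came from separate experiments, so a p-value measures only the spread between these samples. The deposited table of FoxA2-Cre unfused replicate 2 is numbered as the labels number R26Y hybrid replicate 2, while its own label has another number. It was used as its record assigns it, and results on those groups carry that doubt.

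Interferons are secreted proteins that bind receptors on the cell surface and activate the kinases Jak1 and Tyk2. These phosphorylate transcription factors such as Stat2, which joins Irf9 in the complex ISGF3. ISGF3 binds the interferon-stimulated response element (ISRE) in the promoters of antiviral genes. Microglia and other brain cells make and answer type I interferon after injury and infection. The products of the genes sense foreign RNA, degrade it, block translation, trap virus particles at membranes or trim peptides for antigen presentation.

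The promoter stretches below show the motif through which these genes are known to be regulated, in members of different roles. RefSeq promoters (build GRCm38.p6, 250 bases before to 50 after the gene start) were at hand for 26 of the 34 members. The ISRE core was searched as GAAA, any 2 bases and GAAA on both strands, with overlapping matches counted. The core of the gamma-activated site was searched as TTC, any 3 bases and GAA on both strands. The ISRE core was found in 14 of the 26 member promoters (53.8%) and in 3.99% of all 27025 promoters. The gamma-activated site was found in 7 of the 26 (26.9%) and in 9.55% of all promoters. A match is a description of the letters and not evidence of binding. The 8 stretches were picked after the matches were seen, from members with a match upstream of the gene start, to cover different roles. Each is 40 bases long, reads 5′ to 3′ on the strand of the gene, and has the ISRE core or its reverse complement in capitals.
Isg15, chr4:156200865-156200904, minus strand: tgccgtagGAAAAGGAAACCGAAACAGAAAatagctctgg
Ifit1, chr19:34640784-34640823, plus strand: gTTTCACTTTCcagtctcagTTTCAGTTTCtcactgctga
Ifit3, chr19:34583387-34583426, plus strand: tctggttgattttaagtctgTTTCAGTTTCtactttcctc
Stat2, chr10:128270256-128270295, plus strand: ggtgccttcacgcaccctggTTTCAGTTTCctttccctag
Bst2, chr8:71537577-71537616, minus strand: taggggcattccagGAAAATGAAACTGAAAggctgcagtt
Oas3, chr5:120777715-120777754, minus strand: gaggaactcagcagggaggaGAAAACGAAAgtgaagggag
Rsad2, chr12:26456553-26456592, minus strand: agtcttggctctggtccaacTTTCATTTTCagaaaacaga
Gbp2, chr3:142620584-142620623, plus strand: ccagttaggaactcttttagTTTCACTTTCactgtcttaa
Isg15 held 3 overlapping matches, the nearest beginning 66 bases before the gene start, and the match shown for Ifit3 begins 122 bases before it. The windows of Irf7, Irf9, Oasl2 and Ifit2 did not hold these letters.

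The level of a gene is its log2 processed signal relative to its array's 75th percentile, for which only the 9510 spots well above background on all 10 arrays were used. A level of 0 therefore lies at that percentile and a difference of 1 is a doubling of signal. Levels of different genes come from different probes and are not set against each other. Detection of the members followed the overall detection of each array. Of the 34 members, 29 and 21 were well above background in R26Y hybrids, 28 and 28 in GFAP-Cre hybrids, and 30 and 28 in the pooled unfused cells. On the FoxA2-Cre slide the numbers were 9 and 7 in hybrids, against 20 and 9 in unfused cells. Over all non-control spots, detection was 19.8% to 34.6% in FoxA2-Cre hybrids, 34.8% to 49.2% in FoxA2-Cre unfused cells, and 64.3% to 86.7% on the other slide. Many FoxA2-Cre values of members are therefore at background and have no order among themselves. Ddx58, Zbp1, Ifi35 and Ifi44 were the 4 members well above background on every array.

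**Figure D1:**
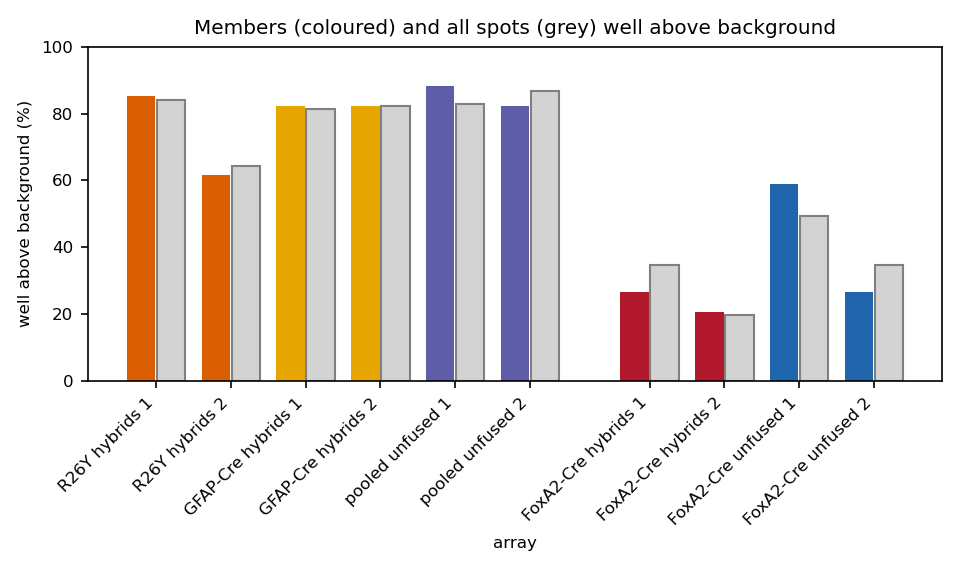
Share of the 34 members (coloured bars) and of all non-control spots (grey bars) well above background, in percent, for each array named by group and replicate. Members and all spots fall together on the 4 FoxA2-Cre arrays, where between 7 and 20 members were detected.

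Of the sort's expected markers, the leukocyte gene Ptprc was well above background on all 10 arrays, and the progenitor genes Kit and Cd34 were on 7 arrays each. Gata2, another progenitor gene, was not well above background on any array. Of 7 astrocyte genes, 1 and 3 were well above background in FoxA2-Cre hybrids and 2 and 2 in FoxA2-Cre unfused cells, against 4 to 6 on each array of the other slide. Of 6 neuronal genes, 5 and 3 were well above background in FoxA2-Cre hybrids and 6 and 5 in FoxA2-Cre unfused cells, against 5 to 6 on the other arrays. Th, the rate-limiting enzyme of dopamine synthesis, was so on all 10 arrays.

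**Figure D2:**
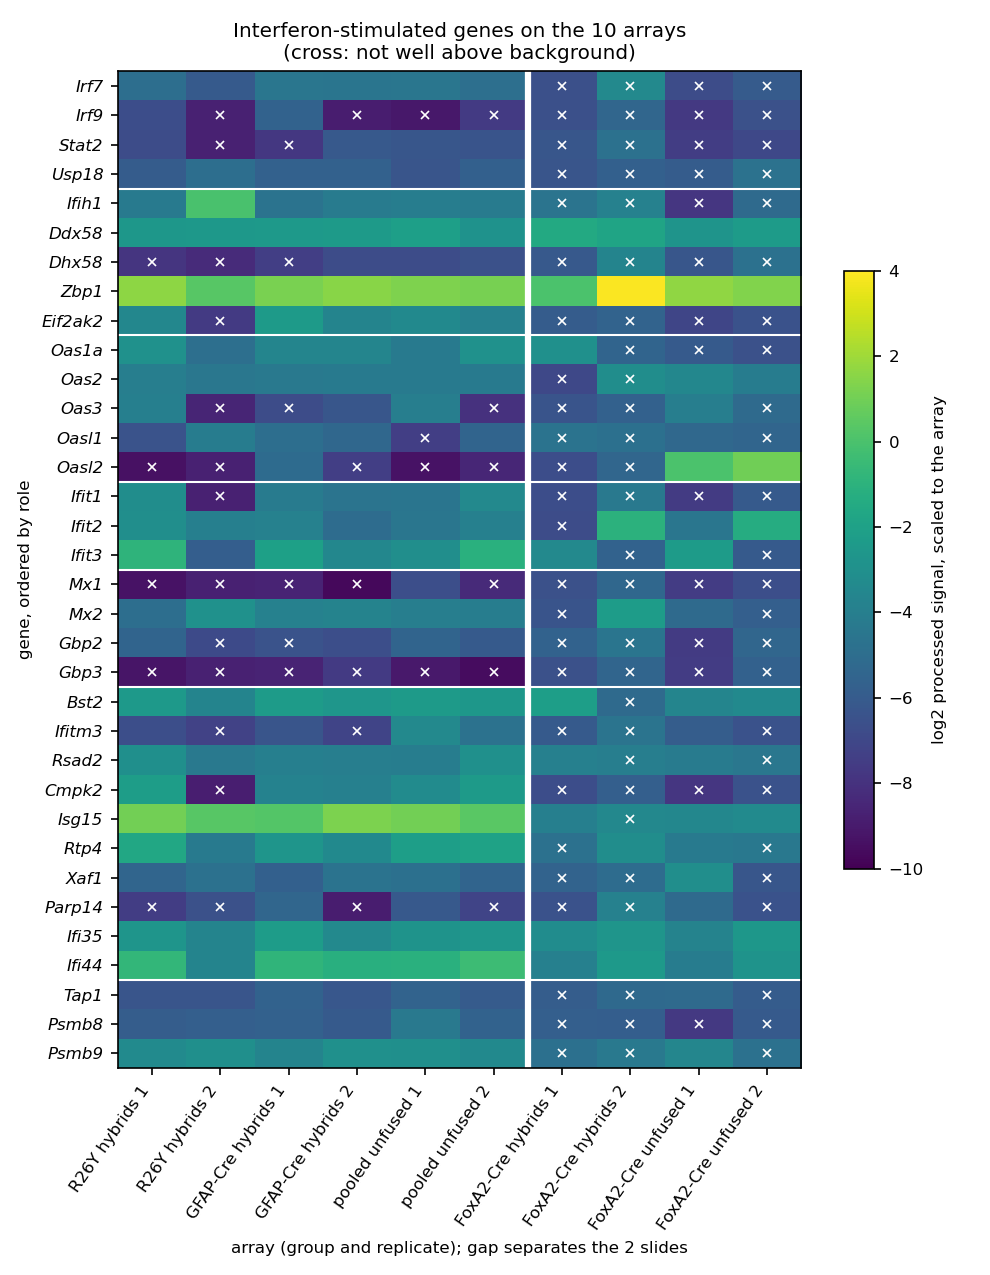
Level of each of the 34 members (rows, grouped by role) on the 10 arrays (columns), as log2 processed signal scaled to the array, from -10 (dark) to 4 (yellow), with a white cross where the probe was not well above background. Most crosses lie on the FoxA2-Cre slide, right of the gap, and Oasl2 stands out in FoxA2-Cre unfused cells.

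A single member was called over all comparisons, Oasl2 in FoxA2-Cre recipients. In R26Y hybrids against pooled unfused cells, 0 of 32 members passed limma at an adjusted p under 0.05, as did 0% of all 31939 genes. At an unadjusted p under 0.05 limma gave 1 member, Ifitm3, and 438 genes in all (1.37%). In GFAP-Cre hybrids against pooled unfused cells, limma also called 0 members and 0% of all genes, with 2 members (Ifitm3 and Oasl2) and 514 genes in all (1.61%) at an unadjusted p under 0.05. In FoxA2-Cre hybrids against FoxA2-Cre unfused cells, 1 of 32 members, Oasl2, was called, beside 170 genes in all (0.532%). Oasl2 was among the lower calls (0.479% of all genes) and 0 members were among the higher ones (0.0532%). At an unadjusted p under 0.05 the number was again 1 member, with 8.67% of all genes. In sorted bulk RNA, fewer cells of a type and less RNA per cell cannot be told apart. The fit over all 6 hybrid and 4 unfused arrays with the slide as a covariate called 0 members and 0% of all genes. There, 0 members and 997 genes (3.12%) had an unadjusted p under 0.05 in limma.

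The median log2 difference of the 32 members was -0.34 in R26Y hybrids, where the median of all genes was -0.26, with 8 members above 0 (35.8% of all genes) and 24 below (64.2%). It was -0.15 in GFAP-Cre hybrids, where all genes had a median of 0.03, with 11 members above 0 (53.4% of all genes) and 21 below (46.6%). In FoxA2-Cre hybrids the members' median was 0.53 and that of all genes 0.36, with 21 members above 0 (63.4% of all genes) and 11 below (36.6%). Without FoxA2-Cre hybrid replicate 2 that median was -0.13. Of the 34 members, 22 were well above background on neither FoxA2-Cre hybrid array and 14 on neither unfused array. The lowest detected signal was at -5.02 and -3.47 on the hybrid arrays, against -6.45 and -4.90 on the unfused ones. Many of these signs therefore compare values at background, which have no order. Over all hybrids the members' median was -0.09, where all genes had 0.03, with 12 members above 0 (52.1% of all genes) and 20 below (47.9%). The R26Y and GFAP-Cre comparisons share the same 2 unfused arrays and are not independent. The precision was low. In single comparisons the 95% interval of a member reached 1.18 (Ddx58) to 4.26 (Ifit3) on the log2 scale to either side, with a median of 2.24. In the fit of all hybrids the median reach was 1.50. A measured difference smaller than its reach has an interval that includes 0. The intervals are not adjusted for the number of genes tested, so a call asked for a larger difference than the reach. Oasl2 in GFAP-Cre hybrids, with an interval from 0.59 to 4.68, was not called.

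**Figure D3:**
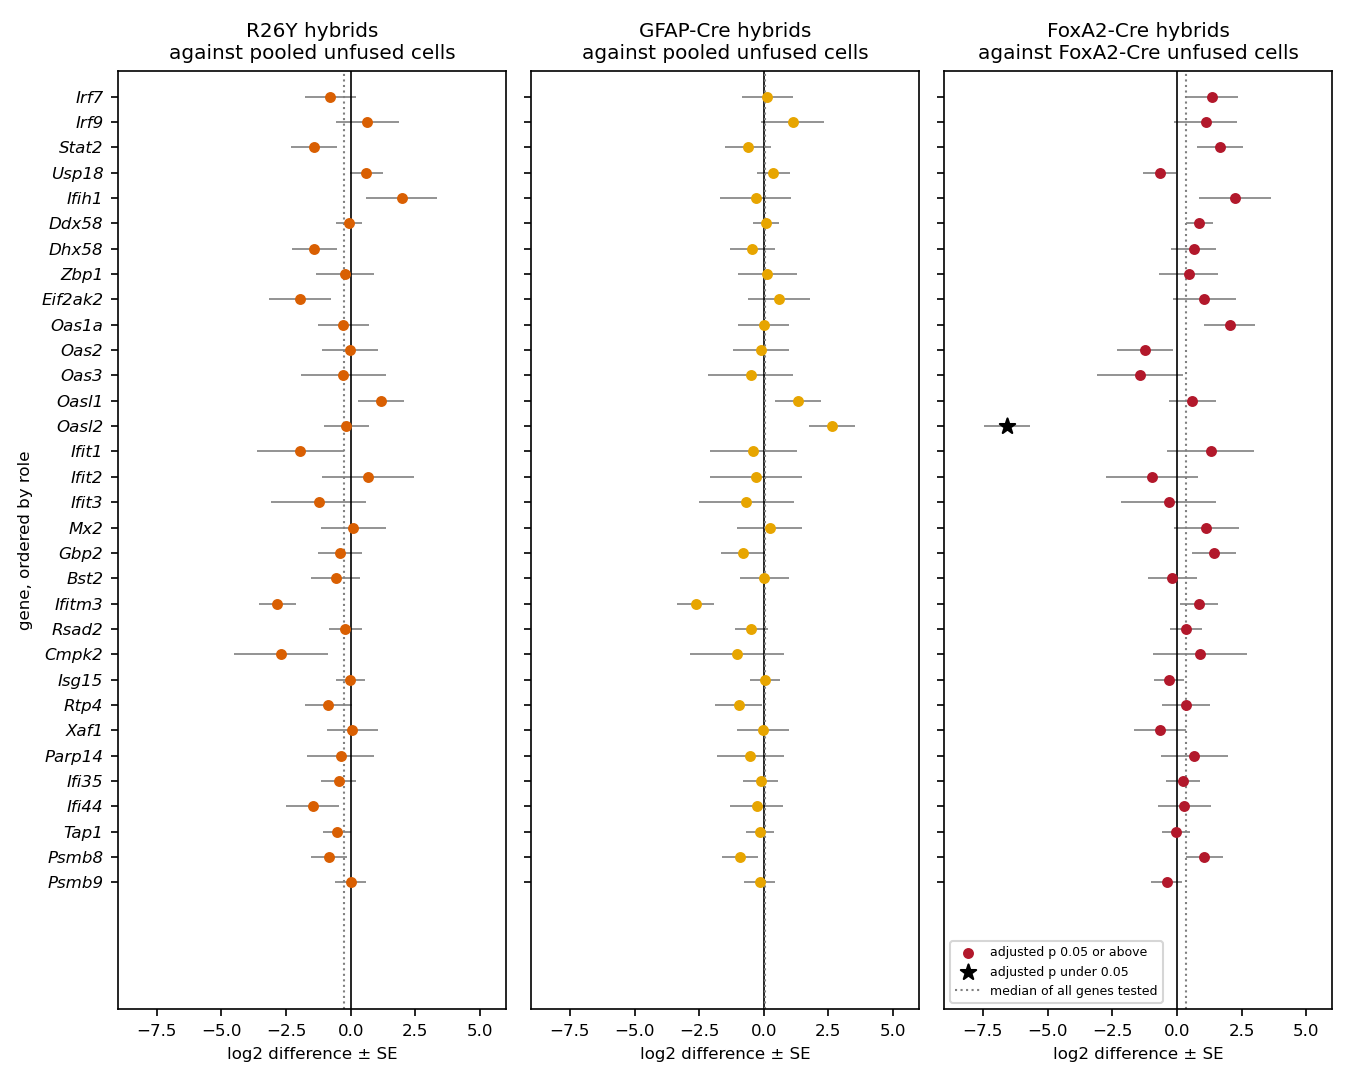
Log2 difference of each tested member (rows, grouped by role) between hybrids and the unfused cells of their own slide, with its standard error, in R26Y, GFAP-Cre and FoxA2-Cre recipients. A star marks an adjusted p under 0.05 and the dotted line the median of all 31939 genes tested. Oasl2, at -6.56 in FoxA2-Cre recipients, is the only star.

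Among the signalling and transcription factors, 0 of 4 members passed in any comparison. Irf7, the factor that amplifies type I interferon production, had levels of -4.92 and -6.01 in R26Y hybrids, -4.50 and -4.58 in GFAP-Cre hybrids, and -4.50 and -4.86 in pooled unfused cells. It had -6.59 and -3.39 in FoxA2-Cre hybrids, against -6.72 and -5.96 in FoxA2-Cre unfused cells, none of them well above background. R26Y hybrids lay just below the pooled unfused cells on both arrays, GFAP-Cre hybrids overlapped with them, and the difference was -0.78 ± 0.99 in R26Y hybrids (SE, limma adjusted p 1.00). Stat2, the subunit that gives ISGF3 its transactivation domain, had levels of -6.73 and -8.73 in R26Y hybrids, -7.72 and -6.09 in GFAP-Cre hybrids, and -6.28 and -6.34 in pooled unfused cells. On the other slide Stat2 had -6.27 and -4.80 in FoxA2-Cre hybrids, against -7.44 and -6.95 in unfused cells, again none well above background. R26Y hybrids lay below the pooled unfused cells on both arrays, with a difference of -1.42 ± 0.89 (SE). The FoxA2-Cre difference was 1.66 ± 0.89 (SE), between values at background that have no order. Neither passed.

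Irf9, the DNA-binding subunit of ISGF3, had the smallest p of its role over all hybrids. Its levels were -6.69 and -8.71 in R26Y hybrids, -5.59 and -8.88 in GFAP-Cre hybrids, and -9.09 and -7.61 in pooled unfused cells. FoxA2-Cre hybrids had -6.58 and -5.37, against -7.65 and -6.52 in FoxA2-Cre unfused cells. Irf9 was well above background on 2 arrays only, replicate 1 of R26Y hybrids and replicate 1 of GFAP-Cre hybrids. The groups overlapped on both slides, and the difference over all hybrids was 0.98 ± 0.72 (SE, limma adjusted p 1.00). That difference and its p mostly compare values at background, which have no order. Usp18, which removes Isg15 from proteins and blocks the receptor, had differences between -0.67 and 0.60 in the single comparisons.

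Among the 5 sensors of foreign nucleic acid, 0 passed in any comparison. Ifih1 (MDA5, a sensor of long double-stranded RNA) had levels of -4.29 and -0.00 in R26Y hybrids, -4.67 and -4.19 in GFAP-Cre hybrids, and -4.04 and -4.19 in pooled unfused cells. It had -4.60 and -3.83 in FoxA2-Cre hybrids, against -7.79 and -5.15 in FoxA2-Cre unfused cells, none well above background. The R26Y hybrids disagreed with each other, replicate 2 alone being far above the other 5 arrays of the slide, so that the difference of 1.97 ± 1.38 (SE) rests on that array. The second Ifih1 probe, well above background on 2 arrays, gave 0.05 for the same difference. Ddx58 (RIG-I, the sensor of short RNA with a 5′ triphosphate) had the narrowest interval of the members. Its levels were -2.57 and -2.51 in R26Y hybrids, -2.42 and -2.39 in GFAP-Cre hybrids, and -2.07 and -2.89 in pooled unfused cells. It had -1.51 and -1.82 in FoxA2-Cre hybrids, against -2.74 and -2.33 in FoxA2-Cre unfused cells, all well above background. Only the FoxA2-Cre groups did not overlap, with a difference of 0.87 ± 0.51 (SE, limma adjusted p 0.649). Dhx58, Zbp1 and Eif2ak2, the kinase PKR that halts translation, had differences from -1.96 to 1.07 against the unfused cells of their slide.

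The oligoadenylate synthetase family held the single call. Oasl2, an oligoadenylate synthetase-like protein with ubiquitin-like repeats, is read by 1 probe at chr5:115362168-115362227 (build mm9). Its level was -6.68 and -5.41 in FoxA2-Cre hybrids, not well above background on either array, against 0.06 and 0.98 in FoxA2-Cre unfused cells. R26Y hybrids had -9.37 and -8.74, GFAP-Cre hybrids -5.09 and -7.41, and the pooled unfused cells -9.30 and -8.48, with only replicate 1 of GFAP-Cre hybrids well above background. FoxA2-Cre unfused cells were thus the only group in which both arrays detected Oasl2. Oasl2 fell in FoxA2-Cre hybrids, with a log2 difference of -6.56 ± 0.88 (SE, limma adjusted p 0.0276). Its signal was at least 27.2-fold lower there, where each hybrid array counts as the lowest signal among its own detected probes. Oasl2 was well above background on 3 arrays in all, both FoxA2-Cre unfused arrays among them, so it passed the filter of 2 arrays only through the group where it was high, and a difference was to be expected once it was tested.

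The call of Oasl2 depended on the fit. The adjusted p was 0.145 with the FoxA2-Cre slide alone, and over all alternatives it ranged from 0.00381 to 0.360, with log2 differences from -8.04 to -3.84. Leaving out either pooled unfused replicate gave an adjusted p of 0.0815, leaving out FoxA2-Cre hybrid replicate 1 gave 0.0811 and leaving out FoxA2-Cre unfused replicate 2 gave 0.0548 (limma). Both FoxA2-Cre hybrid arrays sat in row 1 of their slide and both unfused arrays in row 2, so the row and the cell type cannot be told apart there. A fit with slide row shares the row term between slides and so estimates it from the other slide alone. Losing a FoxA2-Cre call in such a fit therefore cannot decide the effect of row there, for Oasl2 or for the genes below.

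Neutrophil genes were lower in the same comparison, with a median log2 difference of -3.30 over 10 marker genes, where all genes had 0.36. Of these 10 marker genes, 3 were well above background on each FoxA2-Cre hybrid array, against 8 and 6 in FoxA2-Cre unfused cells. Their mean level was -5.15 and -3.78 in the hybrids, against -0.90 and -1.76 in the unfused cells. Of the 10 genes, 2 were called lower, 0 were called higher, and 2 had differences above 0. Mpo (myeloperoxidase) and S100a9 fell, with log2 differences of -7.89 and -8.60 (limma adjusted p 0.0259 and 0.0470), and neither was well above background on any FoxA2-Cre hybrid array, nor were S100a8, Ltf and Ngp. Lcn2 was well above background on all 4 FoxA2-Cre arrays, and Prtn3 on 1 hybrid array and 0 unfused arrays. Mpo and S100a9 were not called with slide row or column in the fit or with the FoxA2-Cre slide alone (adjusted p 0.136 to 0.414 in limma). With the mean of its probes, Mpo had a smaller difference of -3.06 (limma adjusted p 0.104). Mpo was also not called with the deposited matrix (limma adjusted p 0.0705) or array weights (0.481). S100a9 was also not called with quantile normalization (limma adjusted p 0.0717), a replicate block (0.103) or array weights (0.152). Both genes also lost the call when certain single arrays were left out. Their differences then ranged from -8.44 to -7.33 for Mpo and from -10.2 to -7.01 for S100a9. On the other slide the neutrophil mean was -4.24 and -5.55 in R26Y hybrids and -3.73 and -4.57 in GFAP-Cre hybrids, against -2.52 and -3.27 in pooled unfused cells, which had no detected Oasl2. Microglial genes had a mean of -1.15 and -1.71 in FoxA2-Cre hybrids, against -3.40 and -2.63 in FoxA2-Cre unfused cells, with 0 of 10 called. Of these 10 genes, 7 had differences above 0 and 3 below. Detection was not higher in the hybrids, with 8 and 4 well above background against 7 and 6 in unfused cells, and the means include undetected genes. The part of these cells in the Oasl2 difference was not tested.

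The other 4 synthetases did not pass in any comparison. Oasl1, a translational repressor of Irf7 in mice, had levels of -6.42 and -4.10 in R26Y hybrids, -4.92 and -5.31 in GFAP-Cre hybrids, and -7.39 and -5.48 in pooled unfused cells. On the FoxA2-Cre slide Oasl1 had -4.69 and -4.82 in hybrids, against -5.28 and -5.43 in unfused cells, where only unfused replicate 1 was well above background. Hybrids averaged higher on both slides and overlapped the unfused cells in R26Y recipients, with a difference over all hybrids of 0.97 ± 0.53 (SE, limma adjusted p 1.00). Oas1a, Oas2 and Oas3, which make the 2′-5′ oligoadenylates that switch on RNase L, had FoxA2-Cre differences of 2.05 ± 0.99, -1.23 ± 1.09 and -1.42 ± 1.65 (SE). None of these passed. The second Oas1a probe, well above background on 2 arrays, gave -1.45 for the same difference, so the probes disagreed in direction. That value rests on FoxA2-Cre unfused replicate 2, at -0.36 against -6.83 in replicate 1. On this slide the Oas1a probe used was well above background only in hybrid replicate 1.

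Of the 3 Ifit genes, whose proteins bind foreign RNA at the ribosome, 0 passed. Ifit1 had levels of -3.16 and -8.70 in R26Y hybrids, -4.17 and -4.61 in GFAP-Cre hybrids, and -4.54 and -3.43 in pooled unfused cells. It had -6.68 and -4.31 in FoxA2-Cre hybrids, against -7.56 and -6.04 in FoxA2-Cre unfused cells, with none of these 4 well above background. Replicate 2 of the R26Y hybrids was not well above background although the other 5 arrays of the slide were, and the difference of -1.94 ± 1.67 (SE) rests on it. Ifit3 had levels of -0.87 and -5.81 in R26Y hybrids, -2.03 and -3.50 in GFAP-Cre hybrids, and -3.10 and -1.09 in pooled unfused cells. It had -3.41 and -5.60 in FoxA2-Cre hybrids, against -2.34 and -6.03 in FoxA2-Cre unfused cells. Replicates of each group differed by more than the groups did, on both slides, and Ifit3 had the widest intervals of the members. Ifit2 had -6.76 and -1.01 in FoxA2-Cre hybrids, against -4.52 and -1.35 in FoxA2-Cre unfused cells, again with more spread within than between groups.

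Of the 4 GTPases, Mx1 and Gbp3 were not tested and the other members did not pass. Mx2, a dynamin-like antiviral GTPase, had levels of -4.93 and -2.92 in R26Y hybrids, -3.86 and -3.73 in GFAP-Cre hybrids, and -4.01 and -4.06 in pooled unfused cells. It had -6.39 and -2.25 in FoxA2-Cre hybrids, against -5.17 and -5.74 in FoxA2-Cre unfused cells. Only GFAP-Cre hybrids did not overlap with their unfused cells, by a small gap, and the difference over all hybrids was 0.59 ± 0.75 (SE, limma adjusted p 1.00). Gbp2, a guanylate-binding protein of vacuole and membrane defence, had a FoxA2-Cre difference of 1.43 ± 0.85 (SE), with none of its 4 FoxA2-Cre arrays well above background. Mx1 was detected in replicate 1 of the pooled unfused cells alone, at a level of -6.65.

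Of the 10 membrane and other effectors, 0 passed, and Ifitm3 came nearest on the slide of R26Y and GFAP-Cre cells. Ifitm3, a membrane protein that stops viruses from fusing with endosomes, had levels of -6.62 and -7.22 in R26Y hybrids and -6.30 and -7.15 in GFAP-Cre hybrids, against -3.44 and -4.74 in pooled unfused cells. All 4 hybrid arrays lay below both unfused arrays. The differences were -2.83 ± 0.73 in R26Y hybrids and -2.64 ± 0.73 in GFAP-Cre hybrids (SE), with unadjusted limma p of 0.00497 and 0.00721 and adjusted p of 1.00 in both. FoxA2-Cre hybrids had -6.01 and -4.60, against -5.88 and -6.46 in FoxA2-Cre unfused cells, so that these groups overlapped, and only unfused replicate 1 was well above background. The fit over all hybrids gave -1.19 ± 0.71 (SE, limma adjusted p 1.00).

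Isg15, the ubiquitin-like protein whose promoter holds 3 ISRE cores, did not differ with fusion beyond its spread. Its levels were 1.02 and 0.35 in R26Y hybrids, 0.27 and 1.22 in GFAP-Cre hybrids, and 1.00 and 0.40 in pooled unfused cells. It had -3.96 and -3.48 in FoxA2-Cre hybrids, against -3.53 and -3.29 in FoxA2-Cre unfused cells. Hybrids overlapped with unfused cells on both slides, while all 6 arrays of one slide lay above all 4 of the other on the probe used. The second probe did not separate the slides, with R26Y hybrid replicate 2 at -6.19, below FoxA2-Cre unfused replicate 1 at -5.72. The difference of the probe used was -0.12 ± 0.34 over all hybrids (SE, limma adjusted p 1.00). Its probe shares 20 bases with a probe of Gm9706, the only such overlap among the members, and its second probe gave -1.10 in R26Y hybrids where the probe used gave -0.01.

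Bst2 (tetherin, which holds budding virus on the cell surface) had levels of -2.45 and -3.69 in R26Y hybrids, -2.31 and -2.65 in GFAP-Cre hybrids, and -2.39 and -2.59 in pooled unfused cells. On the FoxA2-Cre slide it had -2.17 and -5.17 in hybrids, against -3.62 and -3.37 in unfused cells. Hybrids straddled the unfused cells on both slides, and the difference over all hybrids was -0.24 ± 0.57 (SE, limma adjusted p 1.00). Rsad2 (viperin) and its neighbour Cmpk2 had differences of -0.20 ± 0.63 and -2.70 ± 1.82 in R26Y hybrids (SE). Cmpk2 had -2.19 and -8.84 in R26Y hybrids, against -3.25 and -2.38 in pooled unfused cells. The replicates of R26Y hybrids thus lay on either side of the unfused cells. Against the unfused cells of their slide, Rtp4, Xaf1, Parp14, Ifi35 and Ifi44 had differences between -1.46 (Ifi44 in R26Y hybrids) and 0.67 (Parp14 in FoxA2-Cre hybrids). The second Xaf1 probe, well above background on 5 arrays, disagreed with the probe used. It gave -2.14 against 0.06 in R26Y hybrids, and 0.98 against -0.66 in FoxA2-Cre hybrids.

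**Figure D4:**
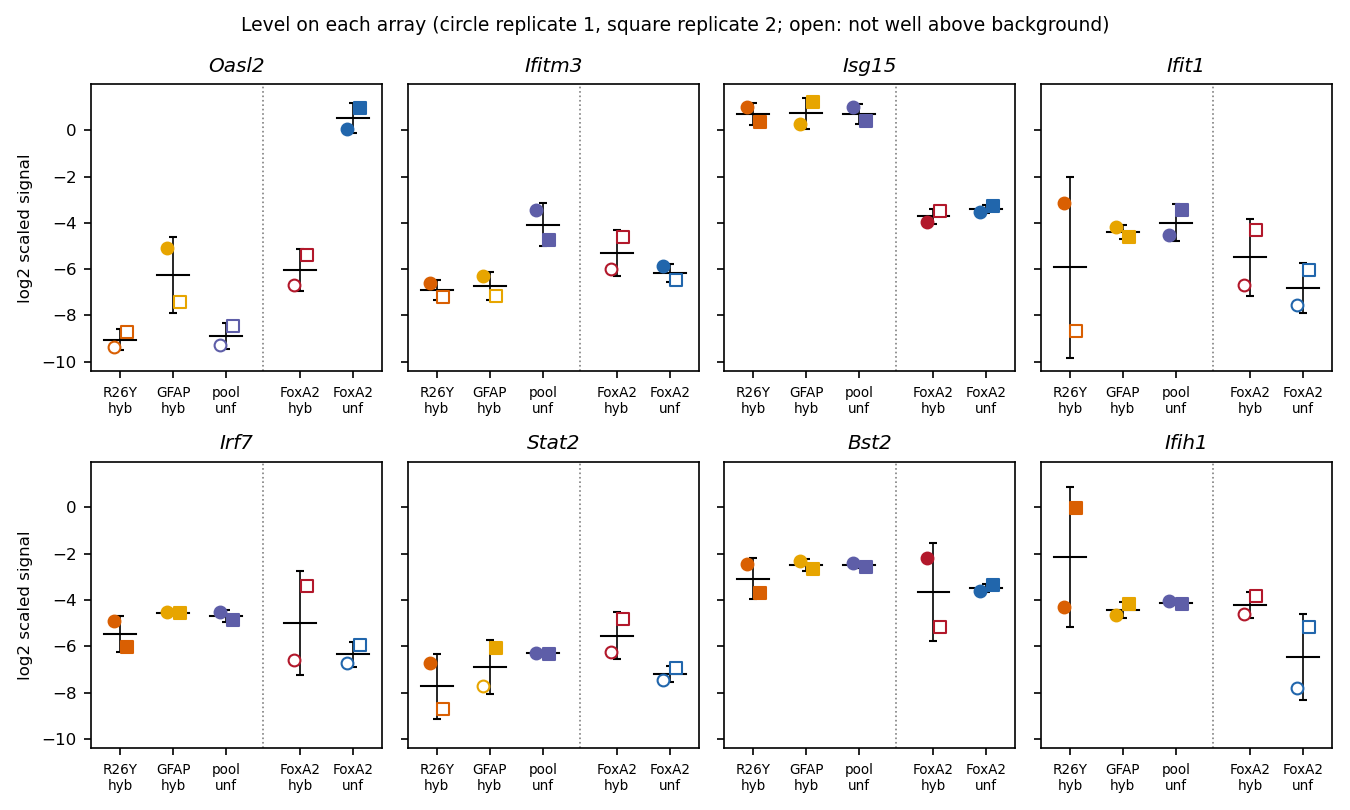
Level (log2 scaled signal) of 8 members on each array, with the mean and SD of each group of 2, hybrids left of their unfused cells and the FoxA2-Cre slide right of the dotted line. Open symbols are not well above background. Oasl2 is high in FoxA2-Cre unfused cells, Ifitm3 in pooled unfused cells, and Isg15, by the probe used, on the whole slide of R26Y and GFAP-Cre cells.

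Of the 3 genes of antigen processing, 0 passed. Tap1, a subunit of the peptide transporter into the endoplasmic reticulum, had levels of -6.31 and -6.30 in R26Y hybrids, -5.62 and -6.19 in GFAP-Cre hybrids, and -5.56 and -5.96 in pooled unfused cells. It had -5.90 and -5.24 in FoxA2-Cre hybrids, against -5.16 and -5.93 in FoxA2-Cre unfused cells. R26Y hybrids were below the pooled unfused cells on both arrays and the other hybrids overlapped with theirs, with a difference over all hybrids of -0.21 ± 0.33 (SE, limma adjusted p 1.00). The immunoproteasome subunits Psmb8 and Psmb9 had differences over all hybrids of -0.04 ± 0.51 and -0.21 ± 0.35 (SE). The second Psmb9 probe, well above background on 4 arrays, gave 2.59 in R26Y hybrids where the probe used gave 0.01.

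Members were also counted whose hybrid and unfused arrays do not overlap, with no test of the counts. In R26Y hybrids 6 of 32 members (18.8%) lay wholly below the pooled unfused cells (19.5% of all genes) and 0 wholly above (10.5%). In GFAP-Cre hybrids 8 members (25%) lay wholly below (14.4% of all genes) and 4 (12.5%) wholly above (19.9%). In FoxA2-Cre hybrids 2 members (6.25%) lay wholly below FoxA2-Cre unfused cells (10.6% of all genes) and 8 (25%) wholly above (26.5%). Of those 10 FoxA2-Cre members, Ddx58 above and Oasl2 below were the ones with the brighter group well above background on both arrays, a condition added after the values were seen (7.96% and 8.49% of all genes). Dhx58, Ifitm3 and Psmb8, 9.38% of the members, were below the pooled unfused cells on all 4 hybrid arrays of the slide (5.11% of all genes, and 5.08% with the condition), and 0 members were above (4.42%, and 3.89% with the condition). With that condition the R26Y counts were 6 below (18.9%) and 0 above (9.91%), and the GFAP-Cre counts 8 below (14%) and 3 above (19.2%). On both slides together, 0 members lay wholly above (1.08% of all genes) and 0 wholly below (0.473%) their unfused cells, and likewise 0 with the condition (0.357% and 0.344%). In 4 members (12.5%), R26Y or GFAP-Cre hybrids lay wholly on one side of their unfused cells and FoxA2-Cre hybrids wholly on the other, as in 10.6% of all genes.

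The hybrid types were also compared with each other. In GFAP-Cre hybrids against R26Y hybrids limma called 0 of 32 members and 0% of all genes, with 1 member and 872 genes (2.73%) at an unadjusted p under 0.05. That member was Oasl2, with a difference of 2.80 ± 0.88 (SE). Of the members 20 were above 0 (66.9% of all genes) and 12 below (33.1%). An interaction term set the FoxA2-Cre difference against the mean of the R26Y and GFAP-Cre differences, and 0 members and 30 genes in all (0.0939%) were called, 0.0125% of all genes higher and 0.0814% lower. In it 23 members were above 0 (62.8% of all genes) and 9 below (37.2%). At an unadjusted p under 0.05 limma gave 2 members, Oasl2 and Ifitm3, and 1796 genes (5.62%). Oasl2 differed by -7.80 ± 1.17 (SE, limma adjusted p 0.0895) and Ifitm3 by 3.60 ± 0.96 (SE, limma adjusted p 0.619).

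The spread between replicates set what these arrays could show. The median absolute difference between replicates, over the tested members, was 1.26 in R26Y hybrids, 0.47 in GFAP-Cre hybrids and 0.61 in pooled unfused cells. It was 1.24 in FoxA2-Cre hybrids and 1.02 in FoxA2-Cre unfused cells. In R26Y hybrids, 15 of 32 members (46.9%) were lower in replicate 2 than in replicate 1 by more than 1 on the log2 scale, as were 38.6% of all genes. In FoxA2-Cre hybrids, 15 members (46.9%) were higher in replicate 2 by more than 1, as were 34.8% of all genes. R26Y hybrid replicate 2 was also the array of its slide with the lowest detection. Eif2ak2 and Cmpk2 were named after their values were seen, because their R26Y differences grew when replicate 1 was left out. Cmpk2 then had a log2 difference of -6.03 and Eif2ak2 one of -4.00. That fit leaves a single R26Y hybrid array, and calls rose over all genes as well, so its calls are not a result on these members. Eif2ak2 had levels of -3.52 and -7.61 in R26Y hybrids, against -3.34 and -3.87 in pooled unfused cells. With both replicates in the fit neither passed.

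**Figure D5:**
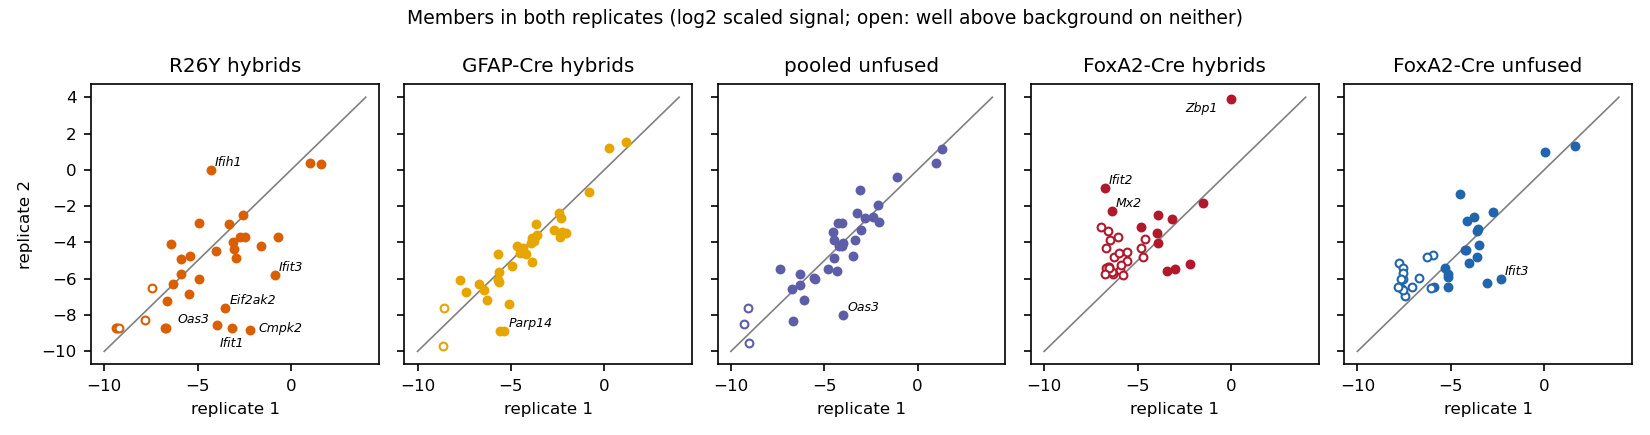
Level (log2 scaled signal) of the 34 members in replicate 1 (horizontal) and replicate 2 (vertical) of each group, with the line of equality. Open circles were well above background on neither array. Members lie close to the line in GFAP-Cre hybrids and pooled unfused cells, and R26Y hybrids scatter below it, with Ifih1 far above.

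Genes upstream of the members were followed in lists by role. Of the type I and III interferon ligands, 0 of 14 passed in any comparison. Ifnb1 (interferon beta) had levels of -4.53 and -5.21 in R26Y hybrids and -3.96 and -5.95 in GFAP-Cre hybrids, against -4.69 and -4.43 in pooled unfused cells. It had -6.54 and -5.59 in FoxA2-Cre hybrids, against -6.01 and -6.61 in FoxA2-Cre unfused cells. Hybrids overlapped with unfused cells on both slides. On the FoxA2-Cre slide, both hybrid values and that of unfused replicate 2 were below the lowest detected signal of their arrays and have no order. Of 5 interferon receptor genes tested, 0 passed, and the receptor subunits Ifnar1 and Ifnar2 had differences over all hybrids of 0.15 ± 0.54 and -0.32 ± 0.85 (SE). Of 8 receptor kinases and STAT and IRF factors tested, 0 passed. Jak1 differed by -0.30 ± 0.45 and Tyk2 by 0.68 ± 0.43 over all hybrids (SE). Of 11 upstream sensors and adaptors and of 39 other interferon-induced genes tested, 0 passed in any comparison.

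Of 10 negative regulators, Trim30a, an interferon-induced TRIM protein known to restrain Toll-like receptor signalling, passed in FoxA2-Cre recipients, 1 of 10 where 0.532% of all genes were called. It had levels of -6.63 and -5.53 in FoxA2-Cre hybrids, against 0.05 and -1.16 in FoxA2-Cre unfused cells, and the unfused arrays were its only ones well above background. Trim30a fell in FoxA2-Cre hybrids, with a log2 difference of -5.53 ± 0.65 (SE, limma adjusted p 0.0159), and its signal was at least 12.9-fold lower. It passed the filter only through the group where it was high, so a difference was to be expected once it was tested. Trim30a was not called with slide row (adjusted p 0.255), with slide column (0.433) or with the FoxA2-Cre slide alone (0.191), nor when a pooled unfused replicate (0.0594) or a GFAP-Cre hybrid replicate (0.0557) was left out (limma). It had -9.19 and -8.74 in R26Y hybrids and -8.57 and -7.81 in GFAP-Cre hybrids, against -7.29 and -7.41 in pooled unfused cells, none well above background. The neutrophil values given beside Oasl2 were lower in the same FoxA2-Cre comparison, and their part in the Trim30a difference was not tested.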

How the data were processed

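The authors deposited 1 spot table per array, made with Agilent Feature Extraction 10.7.3.1 per the file headers. Per the labels, RNA was amplified by whole transcriptome amplification before labelling. The deposited tables give intensity per spot (processed, mean and background) and, per the file headers, 0 or 1 marks for spots above background or non-uniform. A deposited matrix holds log2 values, made by a method not given in the sources used here, which served as an alternative. Each array had 62976 spots, 59305 of them not controls.

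Log2 processed signal minus the array's 75th percentile was analysed, with spots of a probe averaged and non-uniform spots left out. The filter on low values asked for 2 or more arrays with the probe well above background, and 86 genes lacking a value on an array were left out. limma 3.58.1 in R 4.3.3 fitted 5 group means (5 residual degrees of freedom) or slide and fusion (7), with two-sided tests and Benjamini-Hochberg adjustment over all genes. The number of arrays limits the precision. The fitting step was tested on simulated data. Of the chosen probes, 32 of 34 had an accession in RefSeq, all with the same symbol. Probe coordinates are those of the files (mm9). A lower bound, written as at least, replaces a group not well above background on any array by the higher, per array, of its own signal and the lowest signal among detected probes.

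Values on every array are given for members called in any comparison, for the member of smallest p over all hybrids in each role, and for Isg15, Irf7, Stat2, Ifit1 and Bst2. Ddx58, Cmpk2 and Ifit2 were added after their values were seen. Alternatives were other normalizations, filters and probe rules, the deposited matrix, a replicate block, slide row or column, array weights, single slides and leaving out each array. Non-overlap with a condition on detection was added after seeing the data. The members, lists, tests and alternatives were chosen with earlier results of these data known. There were 0 columns of unmatched samples.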

Additional observations from a re-analysis of the deposited data

Results flagged for a closer look

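In 4 members every hybrid array of one recipient type lay on one side of its unfused cells and every FoxA2-Cre hybrid array on the other side, as in 10.6% of all genes. Oasl2 differed by 2.64 in GFAP-Cre hybrids and by -6.56 in FoxA2-Cre hybrids. Psmb8 differed by -0.85 in R26Y hybrids and -0.91 in GFAP-Cre hybrids, and by 1.07 in FoxA2-Cre hybrids. Stat2 differed by -1.42 in R26Y hybrids and by 1.66 in FoxA2-Cre hybrids. Ifih1 differed by -0.31 in GFAP-Cre hybrids and by 2.25 in FoxA2-Cre hybrids. The difference between a single slide-mate type and FoxA2-Cre hybrids was not tested. The interaction over both types gave limma adjusted p of 0.0895 for Oasl2, 0.835 for Psmb8 and for Stat2, and 0.865 for Ifih1. In each pair at least 1 comparison had its brighter group not well above background on an array, and there values have no order.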

How the results depend on the processing

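Of the log2 differences of single members over all alternatives, 4199 kept their side of the threshold, 6 passed newly, 9 lost the call and 0 called values turned direction. All 9 losses were Oasl2 in FoxA2-Cre recipients, where 0 members were called with a filter at 5 arrays (Oasl2 not tested), a replicate block, slide row or column as a term, array weights, or the 1 slide alone. Its adjusted p was then 0.0632 with the replicate block, 0.124 with row, 0.360 with column, 0.155 with array weights and 0.145 on its slide. Leaving out 1 array at a time gave 0 to 1 members called there, with 0 and an adjusted p of 0.0815 without either pooled unfused replicate, 0.0811 without FoxA2-Cre hybrid replicate 1 and 0.0548 without FoxA2-Cre unfused replicate 2. All genes called there numbered 170, against 105 with the replicate block, 101 with array weights, 0 with row, column or the slide alone, and 59 to 559 leaving out 1 array. In R26Y hybrids against pooled unfused cells, and in GFAP-Cre against R26Y hybrids, members (Cmpk2 and Eif2ak2) were called only without R26Y hybrid replicate 1. That fit leaves a single R26Y hybrid array, and calls rose over all genes as well, so they are not a result on these members. In the interaction 1 member, Oasl2, was called with normexp and quantile normalization (limma adjusted p 0.0230), beside 27 genes in all of 31939. It was also called with the authors' matrix (limma adjusted p 0.0414), beside 54 genes in all.

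Of the members' median differences, 130 moved by less than the spread between replicates. The GFAP-Cre median was 0.44 with slide column as a term, that of all hybrids 0.53 on the FoxA2-Cre slide alone, and the FoxA2-Cre one -0.13 to 1.03 leaving out 1 array, the lowest without FoxA2-Cre hybrid replicate 2. The cause was not tested. Replicate numbers did not pair the samples: correlations of same-numbered deviations across genes ran from -0.0717 to 0.0731. Signal over background limits the FoxA2-Cre slide, where 4 members were well above background on both hybrid arrays.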
